A study of Homo sapiens with 16 samples.

Results

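The regions described here are the places in the genome where all 4 NFKB2 ChIP-seq libraries of T47D cells listed a peak. T47D is an established luminal A, estrogen receptor–positive human breast cancer line. Cells had been transduced with lentiviral shRNAs against DAB2IP (knockdown) or with an empty vector (control) and selected with puromycin. The empty vector is named in the study's methods, while its results give a scrambled shRNA for the T47D controls of a spheroid assay. DAB2IP encodes a RasGAP, a protein that turns off Ras signaling. There were 12 immunoprecipitation libraries in 6 groups, with 2 knockdown and 2 control libraries for each of the antibodies against RELA (p65), RELB and NFKB2, and 4 input libraries that enter only through the peak calls. The treatment labels speak of shRNAs in the plural and do not say which one a library received, and nothing says whether replicates came from separate transductions. Peak lists hold no expression values, so neither the cell line nor the knockdown could be checked in them.

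The regions were selected on the NFKB2 peak calls themselves. Peaks longer than 5000 bp were dropped, peaks on chromosomes 1 to 22 and X that shared at least 1 bp were merged across the 4 libraries, and a merged region was kept when it held a peak from each library. That left 6630 members of 2155429 merged NFKB2 regions (0.308%). The 4 lists held 574498 to 708547 peaks each, of which 9.40% to 9.81% were on X. Another 55710 regions were called in 3 libraries, 323495 in 2 and 1769594 in 1. Merging the lists of all 12 libraries gave 3536824 regions. Peak number, height and p-value in the NFKB2 lists chose the members and are given below as a description, with no test.

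NFKB2 encodes p100, which is processed to p52, the DNA-binding partner of RELB in the noncanonical NF-κB pathway. RELA is the main activating subunit of the canonical pathway and usually binds DNA with p50. NF-κB dimers recognize κB sites, short sequences with a run of G at one end and a run of C at the other, and in most cells they are studied at promoters and enhancers of inflammatory, survival and proliferation genes. Satellite DNA, by contrast, is sequence repeated in tandem, concentrated at centromeres and the heterochromatin beside them.

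The genome sequence of a member can be shown only where a member reaches a promoter window of the RefSeq table (GRCh38.p14, 250 bases before to 50 bases after a gene start). Of 22131 such windows of protein-coding genes, 22 shared a base with a member. The windows below belong to the 3 of these members with the highest smallest −log10 p over the 4 libraries and to the highest on X, and are shown because they are the nearest the members came to ordinary promoter sequence. Each runs 5′ to 3′ on the strand of its gene, and capitals mark every match to GGGNNNNNCC on either strand, the outer bases of a κB site.
KRTAP22-1 (chr21:30600837-30601136, plus strand, all 300 bases inside the member): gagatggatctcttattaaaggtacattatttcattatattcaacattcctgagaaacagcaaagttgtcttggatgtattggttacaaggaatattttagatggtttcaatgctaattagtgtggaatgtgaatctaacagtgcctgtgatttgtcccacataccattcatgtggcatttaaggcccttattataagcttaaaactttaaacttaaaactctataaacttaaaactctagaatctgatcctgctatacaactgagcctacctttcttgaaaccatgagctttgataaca
COL8A2 (chr1:36125173-36125472, minus strand, 40 bases inside the member): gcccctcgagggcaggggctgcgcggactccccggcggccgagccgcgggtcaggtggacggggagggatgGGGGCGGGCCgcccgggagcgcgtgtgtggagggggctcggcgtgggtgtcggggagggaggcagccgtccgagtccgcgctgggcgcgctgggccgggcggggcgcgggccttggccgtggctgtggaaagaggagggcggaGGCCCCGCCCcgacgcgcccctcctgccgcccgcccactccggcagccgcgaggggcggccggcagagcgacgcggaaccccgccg
CYFIP1 (chr15:22917264-22917563, minus strand, all 300 bases inside the member): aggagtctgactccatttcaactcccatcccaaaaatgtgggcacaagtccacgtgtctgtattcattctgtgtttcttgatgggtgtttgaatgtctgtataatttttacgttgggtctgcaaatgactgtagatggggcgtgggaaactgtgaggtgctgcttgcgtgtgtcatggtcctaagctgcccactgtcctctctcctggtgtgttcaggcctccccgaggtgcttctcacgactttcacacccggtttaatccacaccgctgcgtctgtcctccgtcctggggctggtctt
ZFX (chrX:24148732-24149031, plus strand, all 300 bases inside the member): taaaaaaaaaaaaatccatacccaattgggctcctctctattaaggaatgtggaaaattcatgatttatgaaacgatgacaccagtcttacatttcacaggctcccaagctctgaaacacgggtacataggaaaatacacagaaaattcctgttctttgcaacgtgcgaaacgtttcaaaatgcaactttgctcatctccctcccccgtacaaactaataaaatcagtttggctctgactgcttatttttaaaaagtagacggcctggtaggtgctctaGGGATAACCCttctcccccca

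The windows of KRTAP22-1, a keratin-associated protein, and of CYFIP1, a subunit of the WAVE actin-regulating complex, held no match. That of COL8A2, a collagen VIII chain, held 2 matches, 1 on each strand, both outside the first 40 printed bases, which are the ones in the member. In the window of ZFX, a zinc-finger transcription factor, the same 10 bases matched on both strands. Counting matches anywhere in a window, inside the member or not, 17 of the 22 (77.3%) held at least 1 match, against 66.6% of all 22131 windows and 64.2% of the 7071 windows that shared a base with any merged NFKB2 region. The stricter κB consensus, searched on both strands, was found in 2 of the 22 (9.09%) and in 12.7% of all windows. Matches to the looser pattern also count every match to the consensus. The GC content of the windows was similar, with a median of 60.7% for the 22 and 62.3% for all.

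Most members rested on very few fragments. The fold enrichment and p-value of a peak together fix the number of immunoprecipitated fragments at its summit and the local background that the peak caller expected there. At the best peak of each member, the median was 2 fragments in each of the 4 libraries, and 79.0% to 84.2% of members had 3 or fewer. Low fragment numbers were common to the whole lists. Over all peaks the median was 3 in each library, and 57.8% to 71.0% had 3 or fewer. For members and for all peaks alike, the median was 2 on X and 3 on autosomes. In 4039 members no library had more than 3. The median fold enrichment was 2.21 to 2.25 and the median −log10 p was 2.10 to 2.19. Over the 4 libraries, the smallest −log10 p of a member ranged from 1.30, the threshold of the lists, to 28.9, with a median of 1.44. After adjustment for multiple testing, 66 members had a q of at most 0.05 in any library and 27 had one in all 4. Such a q was rare in the whole lists too. By library, 102 to 123 of all peaks had one, and 38 to 44 members did.

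**Figure D1:**
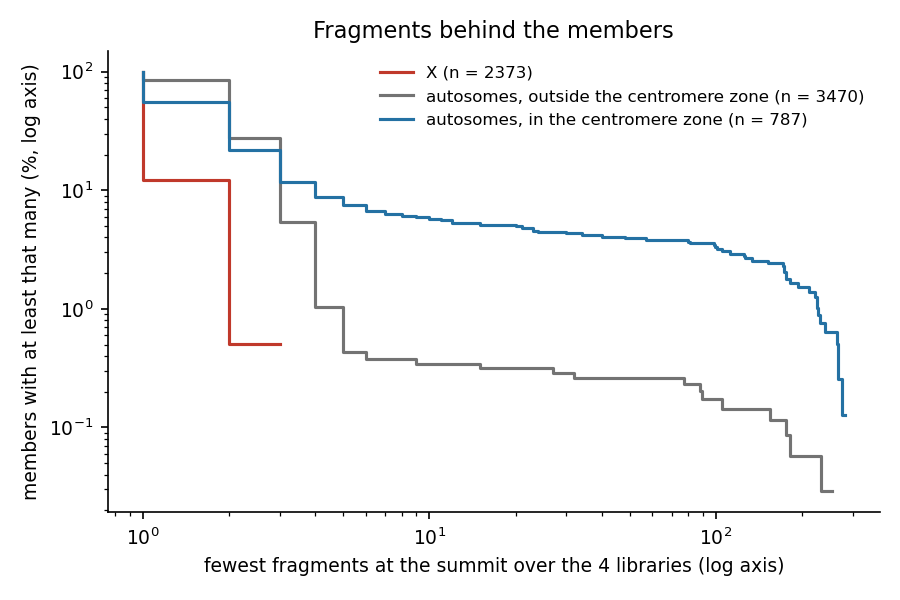
Fewest fragments at the summit over the 4 NFKB2 libraries (x axis, log scale) against the percentage of members with at least that many (y axis, log scale), for members on X, members in the centromere zone of the autosomes and the other autosomal members. The curve for X ends at 3 fragments, while 5.97% of the members in the autosomal centromere zone had at least 10 in every library.

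The fragment numbers separated the members into a large class with few fragments and a small one with many. Only 281 members (4.24%) had at least 4 fragments in every library, 59 had at least 10 and 32 had at least 100. Many fragments did not always mean strong enrichment, since fewer members, 27, had a q of at most 0.05 in all 4 libraries. Of the 59, 47 lay in the centromere zone, 0 on X, 0 in a protein-coding gene and 0 at a promoter. The centromere zone is taken here as the centromere bands with 5 Mb on either side and the large heterochromatin blocks of chromosomes 1, 9 and 16. On X, no member had more than 3 fragments in all libraries, and 12.1% had at least 2. Among autosomal members outside the zone, 85.4% had at least 2 fragments in every library and 0.346% had at least 10.

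Members were longer than other merged regions. Their length ran from 172 to 5239 bp with a median of 691 bp, against 173, 348 and 507 bp for regions called in 1, 2 and 3 libraries. Just 1441 of them (21.7%) held a base that lay under a peak of every library, over a median of 59 bp. In the others the peaks were linked in a chain, each sharing bases with some of the rest. The 3 longest members took nearly all of their length from a single peak of knockdown replicate 2. The longest lay at chr9:68244365-68249603 in ZNG1C, where that peak covered 4667 bp and the best peaks of the other libraries at most 374 bp. At chr9:39748210-39753325 and chr2:93761701-93766651, both in the centromere zone of their chromosomes, it covered 4742 and 4951 bp, and those of the others were shorter still than 374 bp. All 3 had 1 fragment per library and no base under all 4 lists.

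Around the threshold, the 3 weakest members all lay on chromosome 12. At chr12:10793978-10794527, 7 kb from the taste receptor gene TAS2R7, the −log10 p was 1.51 and 1.43 in control and 1.30 and 3.85 in knockdown. The other 2, at chr12:13413512-13414755 and chr12:14042532-14043674, flanked GRIN2B, which encodes a subunit of the NMDA glutamate receptor. They lay 123 and 60.4 kb from the gene. Just outside, regions called in 3 libraries had the nearest peak of the missing library at a median of 1063 bp for control replicate 1, 1064 bp for control replicate 2 and knockdown replicate 2, and 1441 bp for knockdown replicate 1. Between 8 and 15 of these regions per missing library touched its peak without sharing a base, for instance chr1:10082802-10083350, chr1:45777953-45778422 and chr1:52864158-52864731. Knockdown replicate 2 was the single NFKB2 library with peaks over the length limit: 1308 were dropped, the shortest of 5006 bp, and the longest kept was 4991 bp. The longest peaks of the other libraries were 1880 bp (control replicate 1), 2074 bp (control replicate 2) and 1952 bp (knockdown replicate 1).

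How many such regions the lists give by position alone was read from shifted lists. Each list was moved around every chromosome by a different fraction of its length, 20 times, and merged in the same way. These circular shifts gave 3160 regions on average, with 2844 to 3937 in single shifts, so that the observed 6630 were 2.10 times as many. When the lists were moved by only 20 to 200 kb, which keeps each list in its own neighborhood, the mean was 4884 (4745 to 5054) and the ratio 1.36. Lists that no longer line up but keep their regional density thus gave most of this number. Counting just regions with a base under all 4 lists, the ratios were 3.0 (circular) and 1.84 (local). At a q of at most 0.05, 27 regions were common to all 4 lists and none appeared in any of the 20 circular shifts.

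The excess over shifted lists was uneven. In the centromere zone of the autosomes, 787 members stood against 157.6 after circular and 249.7 after local shifts, ratios of 5.00 and 3.15. For autosomal members outside the zone, the ratios were 1.94 and 1.34, and for X they were 1.95 and 1.16. Members in gene deserts exceeded local shifts 1.43 times and members in protein-coding genes 1.28 times. At promoters, 49 members stood against 49.6 after local shifts (41 to 63 in single shifts) and 42.4 after circular ones (34 to 50). The number of members at promoters was therefore within the range of lists that do not line up.

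The X chromosome carried 2373 members, 35.8% of the total, whereas 8.18% of all merged NFKB2 regions lay on X. The share was lower under stricter or looser rules: 14.7% of the 808 regions left when just peaks with a −log10 p of at least 2 were merged, 0 of the 27 left with a q of at most 0.05, and 23.5% of the regions common to the other 3 lists when knockdown replicate 1 was left out. The share grew with the number of libraries that called a region, from 7.02% in 1 library to 11.8% in 2 and 20.7% in 3. Almost all of it came from the long arm: 2252 members lay on Xq, or 24.4 per Mb, and 103 on Xp, or 1.77 per Mb. The change was abrupt at the centromere, with 17 members in the last 10 Mb counted on the short-arm side and 145 in the next 10 Mb. The other bins of Xp held 14 to 24 members and those of Xq, apart from the last, incomplete bin with 80, held 145 to 364. The local background in the NFKB2 lists changed at the same place. Its median was 0.671 to 0.733 fragments in the bins of Xp and 0.281 to 0.314 in the bins of Xq.

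**Figure D2:**
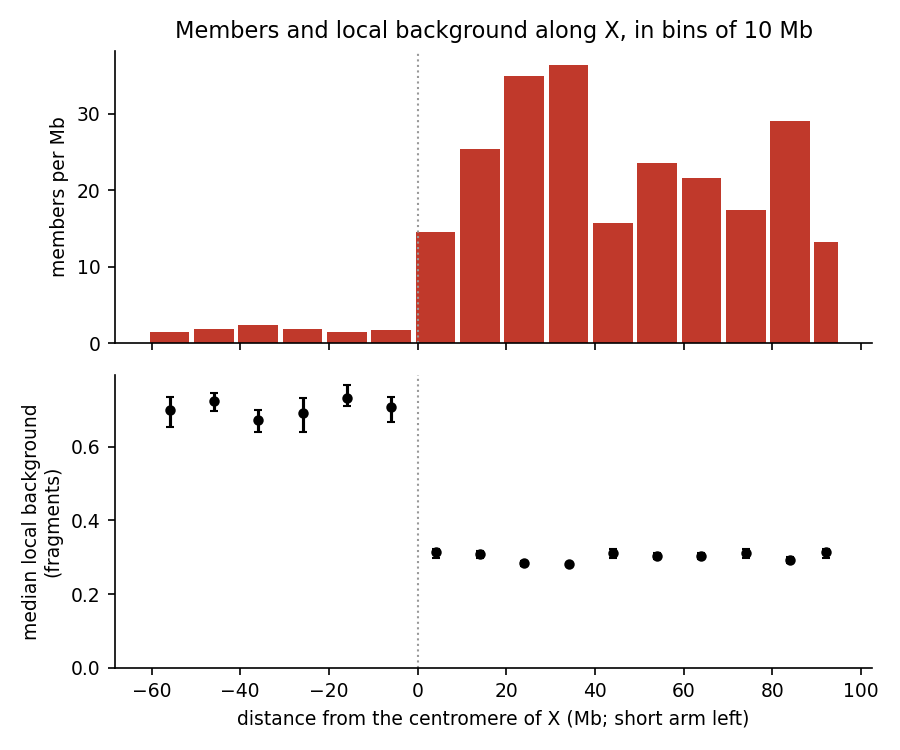
Members per Mb (top) and median local background in fragments (bottom; points, mean of the 4 NFKB2 libraries; bars, lowest and highest library) in bins of 10 Mb along X, plotted by distance from the centromere. Density rises from 1.70 to 14.5 per Mb across the centromere as the background falls from 0.708 to 0.314 fragments.

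Chromosome arms followed the same order. Over 41 arms, Spearman's rho between the median local background and the members per Mb was −0.87, and it was −0.86 without Xq. The arms share their 4 libraries and both measures come from the same lists, so this is a description. After Xq, the densest arms were 12p with 5.54 members per Mb at a background of 0.632, 9p with 3.15 at 0.688 and 8p with 2.48 at 0.726. The sparsest were 20q with 0.354 at a background of 1.32, 12q with 0.534 at 1.23 and 11q with 0.555 at 1.32. Within chromosome 12, the short arm was thus about 10 times as dense as the long arm. How far DNA copy number, mappability or depth enters these densities was not tested.

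**Figure D3:**
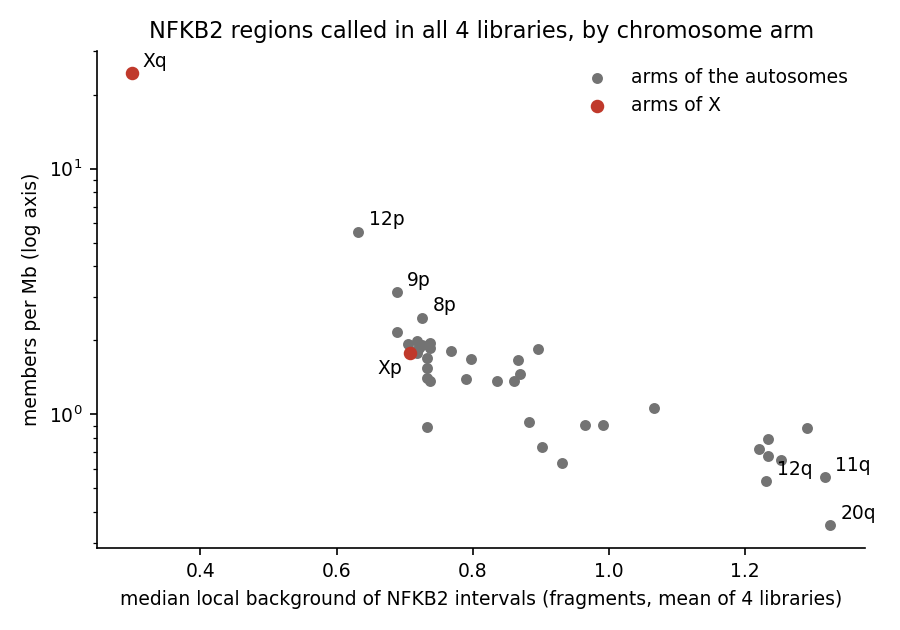
Each point is a chromosome arm, with the median local background of its NFKB2 peaks (x axis, fragments, mean of 4 libraries) and its members per Mb (y axis, log scale). Xq lies apart at 24.4 per Mb and a background of 0.300, and 20q, 12q and 11q are the lowest.

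Relative to shifted lists the order was another one. Chromosome 15 had the highest ratio of members to circular shifts, 126 against 13.5 (9.33), followed by chromosome 21 with 58 against 6.70 (8.66). The lowest ratios were those of chromosomes 4 (408 against 303.6, 1.34) and 2 (493 against 366.2, 1.35), which hold many members. Against local shifts, arm 16p was highest, with 65 members against 11.8 (5.51), then 17q with 49 against 11.8 (4.17) and 15q with 119 against 34.5 (3.45). Xq had 2252 against 1940 (1.16) and 6q fewer members than its local shifts, 193 against 199.1 (0.970). The dense arms were therefore not the arms with the largest excess.

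Members clustered mildly. Another member lay within 10 kb of 24.0% of them, against 11.6% after circular shifts and 21.8% after local shifts.

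The strongest members lay in or just beside the centromere zone, far from genes. The 10 with the highest smallest −log10 p were on chromosomes 1, 5, 16 and 17, and the nearest protein-coding gene was 177 kb to 2220 kb away. The highest of all was chr5:49646015-49646192, 750 kb from EMB. Its summit held 87 and 83 fragments in control and 87 and 80 in knockdown, with a −log10 q of 28.6, 25.6, 20.7 and 22. Its fold enrichment was 5.65 and 4.98 in control and 4.27 and 4.63 in knockdown.

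Next came chr16:46386319-46386632, 192 kb from SHCBP1, with 237 and 232 fragments in control and 236 and 225 in knockdown. The fold enrichment there was lower, 2.53 and 2.49 against 2.17 and 2.61, over a background of 85.6 to 108.3 fragments. A second site on the same stretch, chr16:46401345-46401553, had 226 to 233 fragments. On the short-arm side, chr16:34576398-34576616, chr16:34586764-34586937 and chr16:34592664-34592855 had 152 to 202 fragments. Chromosome 1 contributed chr1:143212905-143213299 and chr1:143214351-143214906, with 233 to 267 fragments in each library, just past the end of the zone as drawn here. The remaining ones were chr5:49630832-49631182 (173 to 191 fragments) and chr17:25074388-25074564 (125 to 150 fragments). In these 10 the knockdown and control libraries had similar fragment numbers, and the widest relative spread was that on chromosome 17.

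Of the 27 members with a q of at most 0.05 in all 4 libraries, 22 lay in the centromere zone, 0 in a protein-coding gene and 0 on X. Of the 66 with such a q in any library, 51 lay in the zone and 3 in a gene. Over all members, 932 (14.1%) lay in the zone, against 8.53% of all merged regions and 10.8% of members moved along their chromosomes (5.78% to 15.4% in single moves). The share rose from 8.26% of regions called in 1 library to 9.36% in 2 and 11.4% in 3. On autosomes it was 18.5%, against 8.61% of merged regions, and on X 6.11%, against 7.60%. Whether these members are satellite repeats could not be read, since no genome sequence or repeat annotation was used here.

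The share of members in protein-coding genes was below that of all merged regions, with no test run. Of the 6630, 2239 (33.8%; 95% exact interval 32.6% to 34.9%) shared a base with a protein-coding gene, against 42.6% of all merged regions. Regions called in 1, 2 and 3 libraries gave 43.1%, 41.1% and 37.9%, and shifted members 39.1% (37.1% to 41.3%). The share was 36.6% for members on autosomes (43.5% of merged regions there) and 28.7% on X (32.4%). Intervals over regions cover counting error only and treat neighboring regions as independent.

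Gene deserts, gaps of at least 500 kb between protein-coding genes, showed the mirror image. As gaps between the same genes, and in part inside the centromere zone, they are not a separate result from those shares. Deserts held 2806 members (42.3%; 95% exact interval 41.1% to 43.5%), against 32% of all merged regions and 33.5% of shifted members (30.0% to 36.2%). Over regions called in 1, 2 and 3 libraries the share was 31.4%, 34.2% and 37.7%. With the chromosomes apart, 40.9% of autosomal members and 44.9% of those on X lay in deserts, against 31.7% and 35.4% of merged regions. Promoters, taken as 1 kb around a gene start, held 0.739% of members (0.547% to 0.976%), against 1.14% of all merged regions. Shifted members gave 1.58% (1.16% to 1.86% in single shifts), so the members lay below every single shift.

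**Figure D4:**
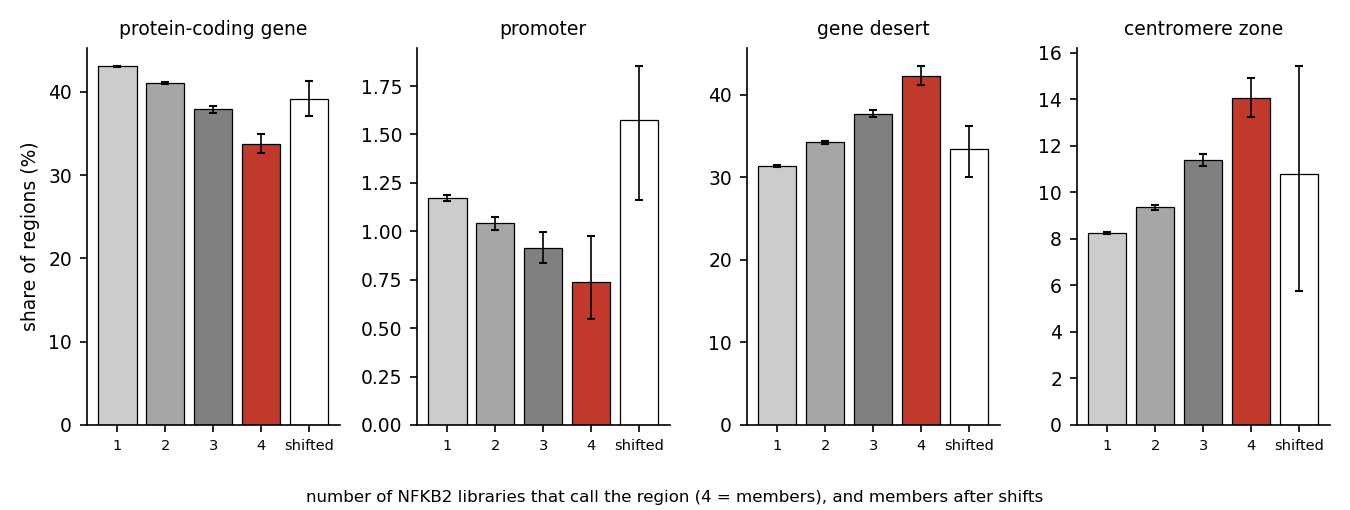
Share of regions (y axis, %) in a protein-coding gene, at a promoter, in a gene desert and in the centromere zone, by the number of NFKB2 libraries that call the region (bars 1 to 4; 4 is the members; error bars, 95% exact intervals) and for the members after 20 shifts (white; error bars, lowest and highest shift). From 1 to 4 libraries the gene share falls from 43.1% to 33.8% and the desert share rises from 31.4% to 42.3%.

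By gene, 1396 of 19970 protein-coding genes (6.99%) had a member in their span or within 1 kb of it. These were long genes, with a median length of 121 kb against 24.2 kb for all. On X it was 199 of 848 genes (23.5%) and on autosomes 1197 of 19122 (6.26%). The 5 genes with the most members were all on Xq. PCDH11X, a protocadherin of neurons, had 42 members over 844 kb, DIAPH2, a formin that nucleates actin, had 28, and DACH2, a transcription cofactor, had 24. IL1RAPL2, of the interleukin-1 receptor family, had 23 and TENM1, a teneurin of synapses, 19.

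Per length, among genes of at least 50 kb, the order was led by PLS3 (an actin-bundling plastin) with 6 members or 6.69 per 100 kb. WDR44 and MID2 had 6 members each (5.78 and 5.67 per 100 kb) and MAGT1, a magnesium transporter, had 4 (5.73). These 4 too were on Xq. On autosomes, a ranking chosen after the values were seen gave PTPRD, a receptor tyrosine phosphatase, with 11 members in 2299 kb, CNTNAP2 with 10, CNTNAP3B with 8, and GRIN2B and LINGO2 with 7 each. CNTNAP3B has near-identical copies on chromosome 9 and PCDH11X has one on Y, so reads there are uncertain in origin.

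Few genes of the NF-κB pathway itself had a member, as few genes did in general. Of 32 genes for NF-κB subunits, inhibitors and upstream proteins, 1 had a member, against 6.99% of all genes. That gene was CYLD, a deubiquitinase that restrains NF-κB signaling, with a member at chr16:50750966-50751818. It had 3 and 2 fragments in control and 2 and 3 in knockdown, and a −log10 p of 3.17 and 1.39 against 1.95 and 2.77. NFKB1, NFKB2, RELA, RELB, NFKBIA and TNFAIP3 had none.

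Among 30 known targets, 2 had a member. At CXCL13, a B cell chemokine, chr4:77604031-77605242 had 2 and 4 fragments in control and 2 and 3 in knockdown. At XIAP, an inhibitor of apoptosis on Xq, chrX:123902046-123902526 had 1 fragment in every library. Of 16 genes that the study discusses, EIF4E alone had a member, at chr4:98900565-98901422, with 3 and 2 fragments in control and 5 and 2 in knockdown. EIF4E encodes the cap-binding factor of translation. DAB2IP and the other 14 had none.

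From the list of luminal genes, ERBB4, a receptor tyrosine kinase spanning 1163 kb, had chr2:211839002-211839654 with 3 and 3 fragments in control and 2 and 4 in knockdown, and chr2:211998062-211998662 with 2 and 3 against 3 and 3. ESR1, PGR, GATA3 and FOXA1 had no member. Each of these members, in all 4 lists, had a −log10 q of 0 in every library.

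Inside or within 1 kb of genes, the strongest members were still shallow. The highest smallest −log10 p was at chr8:10385530-10386260 in MSRA, a methionine sulfoxide reductase, with 3.43 and 3.38 in control and 3.66 and 3.48 in knockdown. It rested on 2, 2, 3 and 3 fragments, and 13 bp lay under a peak of all libraries. SRGAP2B (chr1:145079726-145080320) followed, with 5 and 4 fragments in control and 6 and 4 in knockdown. SRGAP2B is a near-identical copy of SRGAP2, so its reads are uncertain.

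The others of the leading 10 were in MPV17L (chr16:15406737-15407945, 2 to 4 fragments), LCORL, a transcription factor gene (chr4:17906590-17907481, 4 to 5), CALB2, which encodes calretinin (chr16:71366672-71366969, 1 to 3), UGT2B15, an enzyme that glucuronidates androgens (chr4:68658302-68658837, 1 to 2), and C3orf38 (chr3:88154326-88154798, 4 to 5). ANKRD20A1 (chr9:67900485-67900974) had 2 fragments in each library. The predicted genes LOC124904395 and LOC124900568 completed the list. ANKRD20A1 and UGT2B15 belong to families of near-identical genes, so their reads are uncertain too. None of the 10 had a −log10 q above 0 in any library. The member in MPV17L had the longest stretch under all 4 lists, 193 bp.

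At promoters, 49 members reached 51 genes, and 0 had a q of at most 0.05 in any library. The strongest was upstream of EGFL6 (chrX:13568240-13569219), which encodes a secreted EGF-like protein. It had 3 and 3 fragments in control and 3 and 5 in knockdown, with a −log10 p of 2.29, 2.11, 2.81 and 3.61. VGLL2, a cofactor of TEAD factors, followed at chr6:117266253-117267036 with 5 and 3 against 3 and 3. KRTAP22-1, shown above, had 3 and 3 against 5 and 4, and it was held by 3 RELA and 2 RELB lists.

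The rest of the leading 10 were CTNNA2 (a catenin of neurons, 3 and 3 fragments in control, 3 and 2 in knockdown), COL8A2 (3 and 3, 4 and 3), CYFIP1 (2 and 2, 3 and 2), ADAM12 (a metalloprotease, 4 and 5, 3 and 4), and a member shared by STRADB and TRAK2 (3 and 4, 3 and 2). CKMT1B, the mitochondrial creatine kinase, had 2 and 1 fragments in control and 1 and 2 in knockdown, and has a near-identical copy, CKMT1A. KLHL4 on Xq had 3 and 2 against 2 and 1. Of the 49, 44 were also held by at least 1 of the 8 RELA and RELB lists. This was close to the share of all members, 5880 of 6630 (88.7%), which was 71.7% with circularly shifted lists. Of 1558 miRNA hairpins, 4 shared a base with a member: MIR2682, MIR302F, MIR1277 and MIR934.

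On X, the strongest members were no deeper. The first, chrX:61921206-61924398 in the centromere zone, had 3 fragments in control replicate 1 and 1 in each of the others. At chrX:127802580-127803306, 248 kb from ACTRT1, every library had 2 fragments and 137 bp lay under all 4 lists. The third, chrX:131299655-131301791, lay 10.2 kb from IGSF1 and had 2 and 3 fragments in control and 2 and 2 in knockdown. These 3 were chosen after their values were seen.

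The RELA and RELB lists were not used to choose the members, and they show whether the regions were particular to the NFKB2 antibody. The labels give an input library for each condition and replicate number. The 3 antibodies are taken to share that input and its chromatin, which the labels do not state. A region held by several antibodies can therefore not be counted as independent evidence. A member was held by a list when it shared at least 1 bp with a peak. By library, the share held ranged from 9.79% (knockdown replicate 1) to 43.0% (knockdown replicate 2) for RELA, with 36.8% and 34.3% in the control libraries. For RELB the control lists held 37.5% and 37.7%, and the knockdown lists 7.33% and 37.6%. Both lists of knockdown replicate 1 were short, with 105520 peaks for RELA and 75060 for RELB against 517399 to 687414 for the other 6 lists, and held the fewest members. The RELA list of knockdown replicate 2 had 1281 peaks over the length limit, which were dropped, and held the most.

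At least 1 RELA list held 73.8% of members, against 32.3% of all merged NFKB2 regions and 49.9% when the RELA lists were circularly shifted (54.7% with local shifts). For RELB the values were 72.9%, 30.9%, 47.0% and 51.8%. Members are longer than other regions, so the shifted lists and not the merged regions are the like comparison. Averaged over the 4 lists, the share held was 31.0% ± 14.6 for RELA (SD, n = 4) against 16.1% after shifts, a ratio of 2.11 ± 0.435. For RELB it was 30.1% ± 15.1 against 14.9%, a ratio of 2.17 ± 0.379. The ratio was above 1 in 8 of 8 lists, from 1.72 to 2.73. With local shifts the mean ratios were 1.85 ± 0.451 and 1.89 ± 0.383.

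This excess grew with the number of NFKB2 libraries. For RELA the mean ratio was 1.23 ± 0.0353 for regions called in 1 library, 1.45 ± 0.0870 in 2 and 1.73 ± 0.163 in 3 (SD, n = 4 lists). For RELB it was 1.24 ± 0.0240, 1.48 ± 0.0689 and 1.80 ± 0.197. Each of the 8 lists rose at every step.

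**Figure D5:**
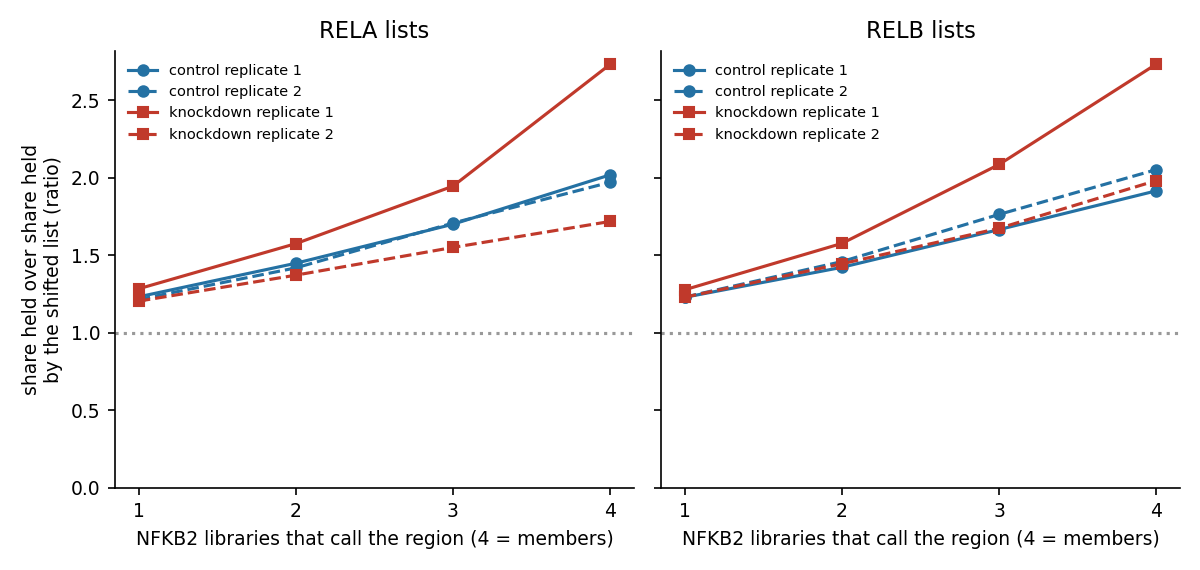
Share of regions held by a RELA (left) or RELB (right) list over the share held by that list after circular shifts (y axis), by the number of NFKB2 libraries that call the region (x axis; 4 is the members). Each line is 1 list (circles, control; squares, knockdown; solid, replicate 1; dashed, replicate 2). All 8 lines rise, and both lists of knockdown replicate 1 end highest, at 2.73.

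The excess was largest in the autosomal centromere zone. Over all 787 members there, the mean ratio was 3.92 ± 1.41 for RELA and 3.95 ± 1.38 for RELB. The 6 longer lists each held 45.6% to 51.1% of these members. Of the 787, 93 had at least 4 fragments in every library, and holding was not computed for them apart. Outside the zone on autosomes, the ratios were 1.90 ± 0.305 and 1.87 ± 0.137, and the same lists held 27.7% to 32.5%. On X they were 1.93 ± 0.320 and 2.08 ± 0.351. In shares, 95.5% of the members on X and 84.9% of those on autosomes were held by at least 1 of the 8 lists, and after local shifts 88.5% and 67.5% were.

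All 8 lists held 28 members (0.422%), 20 of them in the centromere zone, 3 on X and 0 in a gene. After either kind of shift the mean over 20 was 0. Of all 2155429 merged NFKB2 regions, which include the members, all 8 lists held 31 (0.00144%). The leading 5 by their smallest −log10 p over all 12 libraries were chr16:46386319-46386632 (17.5), chr16:34576398-34576616 (16.7), chr1:143212905-143213299 (13.4), chr10:40615676-40615872 (13.2) and chr16:46401345-46401553 (11.4). The member on chromosome 10, 1958 kb from ZNF33B, had 55 and 48 fragments in the control and 58 and 55 in the knockdown NFKB2 libraries. Each of the 10 strongest members in the NFKB2 lists was held by at least 3 RELA and 4 RELB lists. In contrast, 750 members (11.3%) were held by no RELA or RELB list, against 28.3% after circular shifts.

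Seen from the other antibodies, 563 regions were called in all 4 RELA lists and 417 in all 4 RELB lists. Of these, 79 (14.03%) and 70 (16.8%) shared a base with a member, shares for which no shifted or merged background was computed. The members concerned were 1.19% and 1.04% of all members. X held 79 (14.03%) of the RELA and 70 (16.8%) of the RELB regions, against 7.50% and 7.19% of all merged RELA and RELB regions. Of those on X, 75 and 67 were on Xq. The counts on X equal the counts that shared a base with a member. Whether they are the same regions was not examined.

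Whether the knockdown changed how many members a RELA or RELB list held was compared over libraries. For RELA the share was 26.4% ± 23.5 in knockdown and 35.6% ± 1.73 in control (SD, n = 2 each). For RELB it was 22.5% ± 21.4 and 37.6% ± 0.160. The log2 ratio was taken as the difference between the mean log2 shares of the conditions, not from these mean shares. It was −0.79 for RELA (exact two-sided permutation p = 1) and −1.18 for RELB (exact two-sided permutation p = 0.667). These p-values measure the spread between libraries, which may be technical. The smallest p that 2 libraries against 2 can give is 0.33, so no difference could reach the 0.05 threshold. Without knockdown replicate 1 the log2 ratios were 0.28 and 0.000296, and as shares over the shifted lists they were 0.12 and 0.23. Both directions thus rested on the short lists of that replicate.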

How the data were processed

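ChIP-seq peak lists of 12 immunoprecipitation libraries were used as deposited, on hg38. Per the submitters' processing notes, tools included BWA 0.7.12 and MACS2 2.1.0; peaks were called per library. The deposited positions count from 0. The deposited score is a whole number made from the −log10 p-value. The authors' fold enrichment, a ratio, refers to the summit. The authors' lists also give −log10 p-values and −log10 q-values; the smallest corresponds to an unadjusted p of 0.05. Sequencing depth is not in the lists.

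Peaks listed for several summits were counted once (193 entries in the NFKB2 lists). Fragments k and background b at summits were recovered from fold = (k + 1)/(b + 1) and the Poisson p, within 0.0001 of the −log10 p for 99.997% to 99.998% of peaks. Libraries were compared by overlap, with 20 circular and 20 local shifts as background. Genes and promoter windows came from RefSeq tables (GRCh38.p14). Centromere positions were entered by hand from cytogenetic bands, to about 0.1 Mb. Merging, shifting and recovery were tested on simulated data. Condition shares were compared as differences in mean log2 share, by exact two-sided permutation. Groups of 2 were not searched for outlying samples.

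The members, gene lists and tests were chosen with earlier results of these data known. Named items were the 10 strongest members overall and at genes, the 10 at promoters, the 5 genes with most members in number and per length, the 5 held by all lists, listed genes with a member, regions around the threshold and extreme chromosomes. Some items that this rule names are not reported here. The tools were matplotlib 3.10.9, scipy 1.17.1, pandas 2.3.3 and numpy 2.4.6 under Python 3.11.15.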

Additional observations from a re-analysis of the deposited data

How the results depend on the processing

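Across the alternatives tried, 29 values kept their direction and stayed within the set limit, 33 moved and 4 reversed. The number of members was 808 with a −log10 p of at least 2, 27 with a q of at most 0.05, 4414 when merging needed 50 bp, 1441 with a base under all 4 lists, and 17646 to 23405 without 1 library. Of the 808, 14.7% lay on X, and of the 27, 0; without 1 library 23.5% to 26.3% did, settings chosen after seeing the data, as were the autosomal ratios and the shifted count of regions with a common base. The ratio to shifted lists was 1.36 with local shifts, 1.76 without a length limit, 2.69 with a −log10 p of at least 2, 3.0 for regions with a common base, and 1.54 to 1.63 without 1 library. With a cover of at least 50% of the member's length, holding was 5.35 (RELA) and 5.32 (RELB) times the shifted lists. Genes held 46.7% of members with all genes of the table and 36.1% to 36.9% without 1 library. Deserts of 1 Mb held 32.1%, and those of 500 kb 38.3% to 39.7% without 1 library. A zone of 1 Mb held 8.10%, and that of 5 Mb 11.9% to 13.2% without 1 library. The log2 ratio of knockdown over control in holding reversed without knockdown replicate 1 (range −1.86 to 0.28 for RELA and −2.36 to 0.000296 for RELB, leaving out 1 library) and as shares over shifted lists (0.12 and 0.23). With the replicate block it was −0.79 (exact permutation p = 1) and −1.18 (exact permutation p = 0.5, the smallest that 2 pairs can give). The labels do not tie equal replicate numbers of the conditions together. Causes were not tested. In 4039 of the 6630 members no library had more than 3 fragments.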

Other observations

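Sequences other than chromosomes 1 to 22 and X gave 435 further regions called in all 4 NFKB2 lists by the same rule. Of these, 4 lay on Y, 0 on the mitochondrial genome and 431 on unplaced, patch or alternate sequences.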
